A study of Mus musculus with 4 samples.

Results

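The MHC class II genes described here are 7 of the 32285 genes in the 4 matrices, found by symbol in the gene list: H2-Aa, H2-Ab1, H2-Eb1, Cd74, Ciita, H2-DMa and H2-DMb1. All 7 were found once in each matrix, and each drew UMIs in every library. The study compared cells from the proximal end of lower incisors of mice at postnatal day 15 between wild-type mice (WT, 2 libraries) and mice with a germline deletion in the Din gene (Din-KO, 2 libraries), by 10x Genomics single-cell 3′ RNA sequencing. Din is the gene 4930453N24Rik on chromosome 16, and the Din-KO allele lacks exon 2 and carries a LacZ reporter under the Din promoter. The sources used here do not give how many mice, or of which sex, went into a library, nor the strain background, so p-values measure the spread between libraries. Dead cells were removed before capture, and no cells were sorted by type.

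MHC class II molecules are pairs of an alpha and a beta chain that present peptides from endosomes to CD4+ T cells. H2-Aa and H2-Ab1 encode the alpha and beta chains of I-A, H2-Eb1 encodes the beta chain of I-E, Cd74 encodes the invariant chain that chaperones the pair and fills its groove, and H2-DMa and H2-DMb1 encode the H2-M chaperone that exchanges the invariant chain fragment for peptide. Ciita encodes the transactivator that is recruited to the X and Y boxes of class II promoters by the RFX, CREB and NF-Y factors. Dendritic cells and B cells are known to make these molecules at rest, while other cells, among them macrophages and endothelium, can do so after interferon gamma.

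In the mm10 (GRCm38) annotation H2-DMa lay at chr17:34119541-34139101, H2-DMb1 at chr17:34153072-34160230, H2-Ab1 at chr17:34257689-34269419 and H2-Eb1 at chr17:34305867-34316674, all on the plus strand. H2-Aa lay at chr17:34282744-34287823 on the minus strand, and Ciita at chr16:10480059-10528418 on the plus strand. RefSeq promoter windows (GRCm38.p6, 250 bases before to 50 after a start) were matched for 4 of the 7 members. H2-Ab1, Cd74 and Ciita were not among them. The windows were searched on both strands for the Y box core, with the letters CCAAT, and for an X box core, as stretches in which the letters are G, any base, AAC, 3 of any base, and TG.

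The stretches around these letters are shown because the X and Y boxes are where the Ciita complex is known to bind, with the matched letters in capitals and each stretch written 5′ to 3′ on the strand of its gene.

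H2-Eb1 X box core, chr17:34305766-34305795, plus strand: tctctaactaGCAACTGATGatgctggact

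H2-DMb1 X box core, chr17:34153087-34153116, plus strand: ggtttacctaGTAACTGATGatgctaggct

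H2-Eb1 Y box core, chr17:34305796-34305824, plus strand: cctttgatgctgATTGGctcccagcactg

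H2-DMb1 Y box core, chr17:34153118-34153146, plus strand: attcactcagtgATTGGtctgacctgcct

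H2-Aa Y box core, chr17:34287855-34287883, minus strand: gagaattttctgATTGGttctggcgagtt

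The Y box letters stood in reverse in all 3 genes (ATTGG). They began 59 bases before the start in H2-Eb1, 61 in H2-DMb1 and 48 in H2-Aa. In H2-Eb1 and H2-DMb1 an X box core lay just before, from 91 and from 94 bases before the start. H2-Eb1 held another Y box core, and the H2-DMa windows held 1 Y box core far from the start. Over 32851 promoter windows 37.4% held the Y box core, 11.6% the X box core and 4.62% both, so the Y letters alone are common. No member window held an interferon response core (GAAA, 2 of any base, GAAA), which 3.44% of windows held. These are matches of letters in one window per start and were not read as binding sites.

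After filtering, 11310 of 20502 barcodes were kept (1272 to 4575 per library, with medians of 8016 to 11588 UMIs per cell). Any pair of libraries shared 0 to 4 of the kept barcodes. The libraries held 32198098 to 54348039 UMIs in all. The Din row drew 1432, 627, 812 and 466 UMIs in the kept cells of WT replicate 1, WT replicate 2, Din-KO replicate 1 and Din-KO replicate 2, but 3′ counts read the end of the transcript outside the deleted exon 2, so this row does not check the deletion. Cells were grouped into classes by clustering without any class II gene, and a class was named "X-like" from marker genes. The 64 dendritic-like cells (0.566% of cells) numbered 22, 10, 19 and 13 in the same order of libraries, in which values per library are given throughout. The 287 B-like cells numbered 74, 99, 57 and 57, and the 1295 macrophage-like cells 428, 110, 678 and 79. Mesenchyme-like cells made up 51.8% of cells (5859), and endothelium-like cells numbered 750.

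The names were read against their markers. Each of the 16 dendritic markers had a UMI somewhere among the dendritic-like cells, and 12 had one in over 10% of them. They summed to 2755 to 5397 CPM (UMIs per 1000000 UMIs of the class in a library). B markers summed to 16132 to 21766 CPM in B-like cells, macrophage markers to 53708 to 64931 in macrophage-like cells, and endothelial markers to 8788 to 11665 in endothelium-like cells. Macrophage markers were also present in dendritic-like cells, at 351 to 2242 CPM, and in endothelium-like cells, at 719 to 1778 CPM. WT replicate 2 stood apart in both of its smaller myeloid classes. Its 10 dendritic-like cells had monocyte markers at 9888 CPM, above their dendritic markers (4049), against 2332, 2641 and 1543 CPM in the other libraries, and its 23 monocyte-like cells had neutrophil markers at 35083 CPM, above their monocyte markers (26785). The part of these other transcripts in the class II values of those cells was not tested.

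Dendritic-like cells had the highest class II level. The 7 members summed to 46068, 32898, 36292 and 39066 CPM in the 4 libraries, 38581 ± 5592 (SD, n = 4). B-like cells followed with 8143, 7442, 9862 and 11861 CPM (9327 ± 1972), below the dendritic-like cells of the same library in 4 of 4 libraries and without overlap between the classes. Monocyte-like cells ranged from 519 CPM, in WT replicate 2 with its neutrophil markers, to 11650 CPM, macrophage-like cells had 874 ± 398, B precursor-like cells 485 ± 117, endothelium-like cells 450 ± 331 and mesenchyme-like cells 71.7 ± 38.4 CPM. Of the classes named here, neighbours in this order overlapped between libraries from B-like down to endothelium-like cells. Endothelium-like cells (142 to 917 CPM) lay above mesenchyme-like cells (30.3 to 121 CPM) without overlap. In the WT libraries, however, 86.6 and 95.6% of the endothelial member UMIs lay in 1 and 2 cells. All of these were among the 5% of cells most like doublets and had a UMI of Ptprc, Tyrobp, Fcer1g or Cd79a. Neutrophil-like cells averaged 18.9 CPM, and H2-Aa was not detected in them in any library. By total amount, dendritic-like cells held 35.5% of the member UMIs in kept cells, macrophage-like cells 17.4%, monocyte-like cells 14.8%, B-like cells 10.8%, endothelium-like cells 6.86% and mesenchyme-like cells 6.36%.

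**Figure D1:**
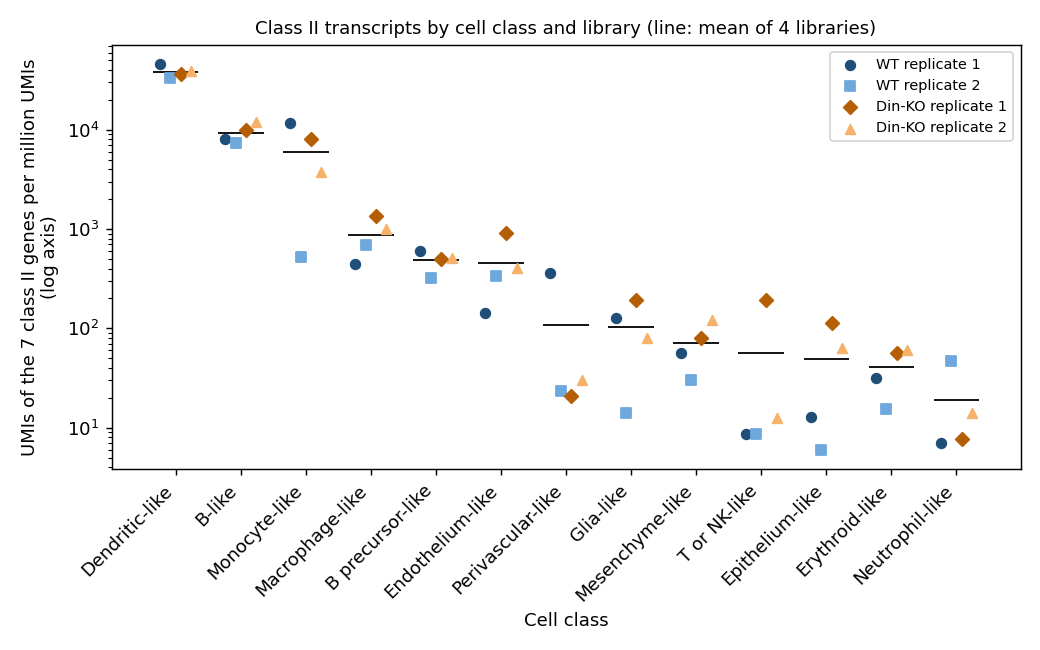
Summed CPM of the 7 class II genes (y, log axis) in 13 cell classes (x), 1 point per library and a line for the mean of the 4 libraries. Dendritic-like cells lie highest (32898 to 46068), B-like cells next (7442 to 11861), and monocyte-like cells spread from 519 to 11650.

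In dendritic-like cells Cd74 stood at 18152, 13946, 14860 and 15067 CPM and H2-Aa at 8426, 7336, 7094 and 7517. The 4 libraries were close to each other beside the distance to any other class. Ciita itself was low but present in every library, at 195, 160, 210 and 231 CPM. H2-DMa was at 1022, 762, 711 and 686 CPM and H2-DMb1 at 857, 709, 658 and 675. Nearly every dendritic-like cell took part: Cd74 had a UMI in 86.4, 80.0, 100 and 100% of cells, and with each cell thinned to 2000 UMIs 56 of 64 cells (87.5%) still had 10 or more member UMIs.

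B-like cells had Cd74 at 5489, 4908, 6009 and 6900 CPM, H2-Aa at 777, 840, 1297 and 1672 CPM and Ciita at 43.0, 48.7, 37.4 and 107 CPM. The chaperone was uneven in them, with H2-DMa at 185, 186, 212 and 248 CPM and H2-DMb1 at 12.9, 33.5, 62.3 and 42.0 CPM. In place of H2-DMb1 they had its close relative H2-DMb2 at 159, 189, 187 and 215 CPM. They also had H2-Ob, a chain of the H2-O protein that restrains H2-M, at 120, 167, 181 and 154 CPM. H2-DMb1 and H2-DMb2 are near-identical copies, so reads that fit both could be lost or divided by the counting.

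Macrophage-like cells were lower. Cd74 stood at 188, 324, 634 and 459 CPM, H2-Aa at 50.1, 109, 190 and 140 CPM and H2-DMa at 98.2, 75.5, 156 and 142 CPM. Ciita was close to absent in them, with 0, 1, 14 and 1 UMIs in the 4 libraries. Cd74 had a UMI in 31.3, 28.2, 41.9 and 44.3% of macrophage-like cells, against 2.76 to 5.18% of mesenchyme-like cells. After thinning to 2000 UMIs the shares were 8.45, 10.0, 23.5 and 23.4% against 0.559 to 1.13%.

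Each class contrast was tested by edgeR's quasi-likelihood test on UMIs summed per library and class, with library as a block and Benjamini-Hochberg adjustment over all genes tested. Since no class II gene was used for clustering, these contrasts do not follow from how the classes were made. Ciita passed the filter on low counts only through the dendritic-like or B-like cells, so its levels above stand as a description and it is left out of the counts against macrophage-like cells. The 6 other members were all higher in dendritic-like than in macrophage-like cells (13% of 6390 genes were higher and 13% lower). The log2 differences were 6.57 ± 0.36 (SE) for H2-Eb1, 6.41 ± 0.36 for H2-Ab1, 6.32 ± 0.31 for H2-Aa, 5.62 ± 0.28 for Cd74, 4.68 ± 0.26 for H2-DMb1 and 3.02 ± 0.23 for H2-DMa, with adjusted p from 4.87e-09 to 4.53e-07 (edgeR). The median was 5.97, and 0.01 over all genes.

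Between B-like and macrophage-like cells 5 of these 6 members were higher in B-like cells (23% of genes were higher and 27.6% lower). Cd74 differed by 3.95 ± 0.20 on the log2 scale, H2-Eb1 by 3.55 ± 0.21, H2-Ab1 by 3.38 ± 0.21, H2-Aa by 3.26 ± 0.18 and H2-DMa by 0.83 ± 0.17. H2-DMb1 was the exception at 0.12 ± 0.32 (edgeR adjusted p = 0.778). With cells chosen one by one from markers, in place of whole clusters, H2-DMa differed by −0.20 and H2-DMb1 by −1.16. That choice gave 515 B-like and 26 B precursor-like cells, against 287 and 231 by cluster, so the B-like class was not the same. The other copy, H2-DMb2, stood at 4.61, 3.64, 5.90 and 4.33 CPM in macrophage-like cells, far under its level in B-like cells.

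B-like cells and B precursor-like cells, which carry genes of earlier stages such as Vpreb1 and Rag1, differed in the same genes. The 5 members with enough UMIs to test were all higher in B-like than in B precursor-like cells (17.8% of genes were higher and 16.7% lower), H2-Eb1 by 4.96 ± 0.22, Cd74 by 4.64 ± 0.17, H2-Aa by 4.13 ± 0.21 and H2-DMa and H2-Ab1 both by 3.22 (SE 0.28 and 0.20) on the log2 scale. Cd74 fell to 313, 162, 260 and 250 CPM in precursors. H2-DMb2 was at 2.39, 9.20, 7.02 and 5.44 CPM in precursors, from 1 to 5 UMIs a library, while H2-Ob was already at 35.8, 73.6, 49.1 and 76.1 CPM in precursors and differed by 1.44 ± 0.23.

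Macrophage-like cells in turn were above mesenchyme-like cells for all 6 members tested (29.6% of genes were higher and 36.9% lower). The log2 differences ran from 1.46 ± 0.24 for H2-DMb1 (edgeR adjusted p = 0.000366) to 5.27 ± 0.38 for Cd74. In mesenchyme-like cells H2-Aa stood at 1.53, 0.894, 7.02 and 17.9 CPM, whereas H2-Ab1 held at 17.2, 16.2, 21.6 and 21.8 CPM. With every mesenchyme-like cell left out that had a UMI of Ptprc, Tyrobp, Fcer1g or Cd79a, genes of immune cells, H2-Aa was at 1.10, 0.683, 1.41 and 1.08 CPM and H2-Ab1 still at 17.3, 16.2, 17.8 and 12.4. Without those cells H2-Ab1 thus had UMIs in 13.3 to 21.5% of mesenchyme-like cells, and H2-Aa, its partner chain, in 0.981 to 1.56%.

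The genes around class II were taken from lists rather than picked for how they moved. The H2-O chains were near absent in macrophage-like cells, with 0 to 6 UMIs of H2-Oa and 0 to 5 of H2-Ob in a library, so only levels are given for them. H2-Oa stood at 151, 17.7, 82.8 and 60.4 CPM in dendritic-like and at 64.4, 42.6, 137 and 74.7 CPM in B-like cells. H2-Ob stood at 48.7, 35.4, 29.2 and 93.3 CPM in dendritic-like cells. Of the promoter factors, none of 4 tested passed the threshold between dendritic-like and macrophage-like cells (edgeR), and only Nfyb, a subunit of NF-Y, was higher in B-like cells, by 1.55 ± 0.30. Of the 3 genes that encode the RFX factor only Rfxap had enough UMIs to test, and it differed by 0.33 ± 0.35 and by 0.27 ± 0.27.

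Of 7 genes of the lysosomal compartment where class II is loaded, 3 were lower in dendritic-like than in macrophage-like cells (13% of genes were), the proteases Ctsb (−3.49 ± 0.20 on the log2 scale), Ctsl and Lgmn (−3.94 ± 0.28). In B-like cells 6 of the 7 were lower (27.6% of genes were), those 3 with Sppl2a, Rab7 and Ctss, the protease that makes the last cut in the invariant chain (−2.28 ± 0.14). Ifi30, a thiol reductase of the loading compartment, was higher in both, by 0.96 ± 0.20 and by 2.44 ± 0.14. March1, the ligase that takes class II off the surface, was higher in dendritic-like cells (1.02 ± 0.22), and its relative March8 was lower in both. Cd86, a costimulatory ligand, was lower in dendritic-like (−1.36 ± 0.31) and B-like cells (−2.75 ± 0.24) than in macrophage-like cells, and Cd40 was higher in B-like cells (3.79 ± 0.33).

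The 10 genes with the pattern most like the mean log2 level of the 7 members were found over 41 sums of a class in a library, from 13 classes, among 11476 genes. They were Pld4 (Pearson r = 0.84), Cd180, Ly86, Slamf9 and Rnase6 (each 0.83), P2ry10b and Pou2f2 (0.82), and Pkib, Ifi30 and Rassf4 (0.81). These sums share libraries and depth, so the values are descriptions. No gene of the promoter factor list was among them.

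Among macrophage-like cells, the 541 with the highest Cx3cr1, the fractalkine receptor, formed 1 cluster, and the other 4 clusters were led by Lyve1, Cd209f, Cbr2 or interferon genes. The Cx3cr1-high cells had Cd74 at 270, 118, 1298 and 903 CPM and H2-Aa at 72.0, 27.5, 387 and 315 CPM. The other macrophage-like cells had Cd74 at 147, 426, 249 and 253 CPM and H2-Aa at 39.1, 150, 75.9 and 58.6 CPM. Both Din-KO libraries were thus higher in the Cx3cr1-high cells and WT replicate 2 was lower.

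In the Cx3cr1-high subset 5 of 6 members tested were higher (5.62% of genes were higher and 7.19% lower). H2-DMb1 differed by 0.94 ± 0.21, H2-DMa by 0.88 ± 0.12 (edgeR adjusted p = 0.000112), H2-Aa by 1.36 ± 0.40, H2-Ab1 by 1.34 ± 0.34 and H2-Eb1 by 1.29 ± 0.34 on the log2 scale. Cd74 was not called, at 1.11 ± 0.39 (edgeR adjusted p = 0.0737). Ctss, March1 and Cd83, which holds class II at the surface, were also higher in the subset, and Ifi30 was lower. Only H2-DMa was called without Din-KO replicate 1 (3.3% of genes were) or by DESeq2 (5.7%), and only H2-DMa and H2-DMb1 without Din-KO replicate 2 (8.72%). With cells chosen one by one 0 members were called (0.693% of genes), and H2-Aa and H2-Eb1 turned to −0.12 and −0.13. There a cell with a Cx3cr1 UMI was high, and one with only Mrc1 low. This rule on the clustered macrophage-like cells gave 1224 and 61 cells, against 541 and 754 by cluster. It called H2-Aa, H2-Ab1, H2-Eb1 and Cd74. Only replicate 1 of each genotype had enough low cells for it (25 and 25, against 9 and 2), and the share of all genes called is not given.

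**Figure D2:**
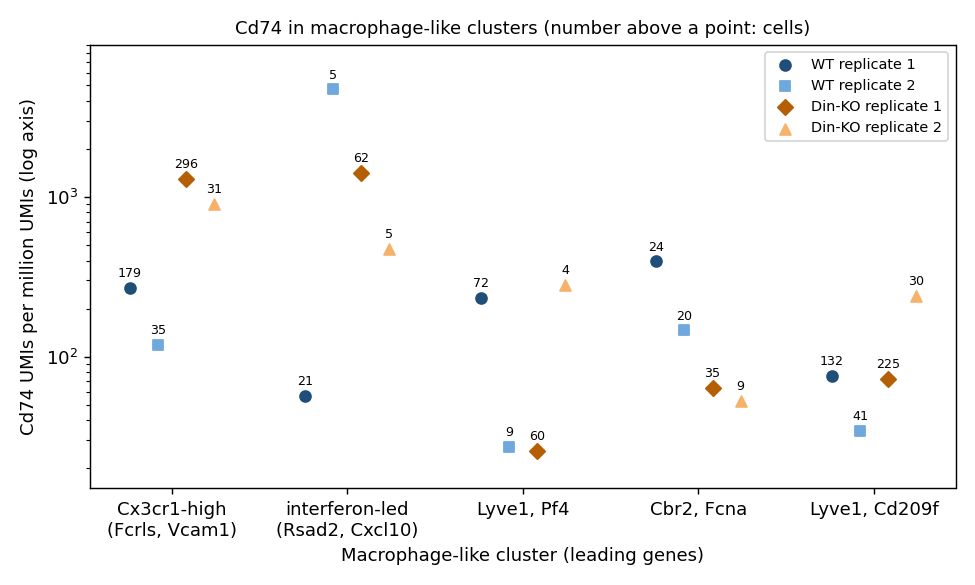
Cd74 level in CPM (y, log axis) in the 5 macrophage-like clusters (x, with their leading genes), 1 point per library with its number of cells above. In the Cx3cr1-high cluster both Din-KO libraries (1298 and 903) lie above both WT libraries (270 and 118), and in the interferon-led cluster WT replicate 2 (5 cells, 4723) lies highest.

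The interferon-led cluster, with Rsad2 and Cxcl10 at its head, decided the WT replicate 2 value. It held 5 cells of that library with Cd74 at 4723 CPM, against 56.4 CPM in 21 cells of WT replicate 1, 1419 CPM in 62 of Din-KO replicate 1 and 472 CPM in 5 of Din-KO replicate 2. With this cluster left out, a choice made after the data were seen, 6 of 6 members tested differed between the subsets (14.9% of genes did). The Lyve1 and Cd209f cluster, with 428 cells, had Cd74 at 75.6, 34.4, 72.6 and 241 CPM.

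Monocyte-like cells were the most mixed class. The Ly6c2 cluster had Cd74 at 5567, 0, 5384 and 1897 CPM and the Ace and Treml4 cluster at 0, 3001, 719 and 151 CPM, from 3 to 32 cells per library. After thinning, 41 of 205 monocyte-like cells (20%) had 10 or more member UMIs while the median cell had 0, so a minority of cells held the class's class II transcripts.

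Between genotypes, no member passed the edgeR threshold in any of the 6 classes tested, each of at least 10 cells in every library. In dendritic-like cells 0 of 7 members were called by edgeR (0% of 2875 genes) or DESeq2, and 0 had an unadjusted p under 0.05. Cd74 differed by −0.06 ± 0.19 and H2-Aa by −0.07 ± 0.20 (log2, Din-KO minus WT). H2-DMa and H2-DMb1 were lower in both Din-KO libraries than in both WT libraries, and Ciita was higher in both. The share of all genes with such an order in this class is not given, so this is a description only. B precursor-like cells, where Ciita, H2-DMa and H2-DMb1 had too few UMIs, gave 0 of 4 members called (0% of genes) by either tool, and 0 with an unadjusted p under 0.05.

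B-like cells, where H2-DMb1 had too few UMIs to test, gave 0 of 6 called by edgeR (0% of genes) and 0 by DESeq2, with 3 at an unadjusted p under 0.05. H2-Aa stood 0.94 ± 0.31 higher in Din-KO on the log2 scale, H2-Eb1 0.82 ± 0.32, H2-Ab1 0.79 ± 0.33 and Cd74 0.37 ± 0.21 (edgeR adjusted p = 0.999 for Cd74). For 5 of the 6 members each Din-KO value exceeded each WT value, against 8.66% of all genes. The median over the members was 0.77, and over all genes −0.00.

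In macrophage-like cells, where Ciita had too few UMIs to test, 0 of 6 members were called by edgeR (0.0674% of genes were called) and 0 by DESeq2, with 5 at an unadjusted p under 0.05. H2-Ab1 was at 37.3 and 83.7 CPM in WT and 174 and 130 in Din-KO, a log2 difference of 1.46 ± 0.41 (edgeR adjusted p = 0.757). H2-Eb1 differed by 1.35 ± 0.41, Cd74 by 1.18 ± 0.37, H2-Aa by 1.17 ± 0.40, H2-DMa by 0.83 ± 0.29 and H2-DMb1 by 0.81 ± 0.38. All 6 lay above both WT libraries in both Din-KO libraries, which 9.61% of all genes did. The median of the members was 1.18 and that of all genes −0.01. Without WT replicate 2, 4 members were called (2.11% of genes were). With cells chosen one by one the differences fell to 0.16 for H2-Eb1, 0.30 for H2-Aa, 0.43 for H2-Ab1, 0.46 for H2-DMb1, 0.53 for Cd74 and 0.76 for H2-DMa. With the interferon-led cluster left out Cd74 differed by 1.97 and H2-Ab1 by 2.41, and in the Cx3cr1-high subset alone Cd74 differed by 2.52, with 0 members called in each of these 3 settings. Whether the genotype difference differed between macrophage-like and B-like cells was tested as an interaction: 0 of 7 members were called by edgeR (0.0245% of genes) or DESeq2, and Cd74, at 0.82 ± 0.33, was the 1 member with an unadjusted p under 0.05.

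**Figure D3:**
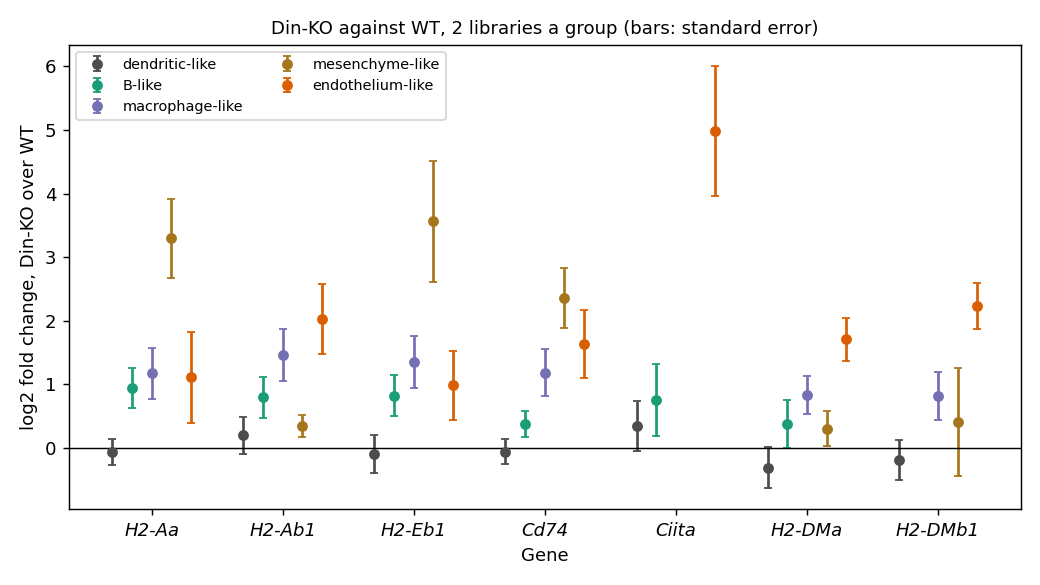
Log2 fold change of each member between Din-KO and WT (y) by gene (x) in 5 cell classes, with standard errors as bars, from edgeR with 2 libraries a group. Dendritic-like cells lie around 0, the other classes above it, none passes the adjusted threshold of 0.05, and the Ciita value in endothelium-like cells rests on 1 UMI in WT.

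In endothelium-like cells the share of cells with class II transcripts was higher in both Din-KO libraries, as was the mean level of some members, though edgeR called none. Cd74 had a UMI in 8 of 239, 6 of 102, 100 of 296 and 36 of 113 cells, that is 3.35, 5.88, 33.8 and 31.9%, and after thinning in 1.27, 1.96, 21.8 and 15.3%. H2-Aa had a UMI in 1.67, 3.92, 23.6 and 21.2% and Ciita in 0, 0.980, 7.43 and 10.6%. Mesenchyme-like cells of the same libraries, for comparison, had Cd74 in 2.76, 3.82, 2.79 and 5.18%. Both Din-KO libraries were far above both WT libraries, while the WT endothelium lay near the mesenchyme-like level.

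By mean level, Cd74 was at 64.2, 139, 431 and 171 CPM, H2-Ab1 at 17.1, 46.9, 164 and 77.3, H2-Aa at 19.9, 66.6, 134 and 37.4 and H2-DMb1 at 4.98, 8.84, 31.5 and 29.3. Ciita had 0, 1, 30 and 16 UMIs, so it entered the test only through the Din-KO libraries. None of 7 members was called by edgeR (0.0449% of genes were) and 2 were by DESeq2 (H2-Ab1 and H2-DMb1, with 0.458% of genes). Ciita aside, 4 of 6 had an unadjusted p under 0.05 (edgeR). H2-DMb1 differed by 2.23 ± 0.37 (edgeR adjusted p = 0.188), H2-Ab1 by 2.02 ± 0.55, H2-DMa by 1.70 ± 0.34, Cd74 by 1.63 ± 0.53, H2-Aa by 1.11 ± 0.71 and H2-Eb1 by 0.98 ± 0.55 on the log2 scale. Of these 6, 4 were higher in both Din-KO libraries than in both WT libraries, which 11.3% of genes were. H2-Aa and H2-Eb1 were the overlapping members.

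Few cells carried these means. Cells with 10 or more member UMIs numbered 1, 2, 58 and 17 (0.418, 1.96, 19.6 and 15.0% of endothelium-like cells) and held 86.6, 95.6, 93.6 and 78.3% of the class's member UMIs. Each had a UMI of Cdh5, the cadherin of endothelial junctions, as did 97.6 to 99.0% of endothelium-like cells with no member UMI in a library. The 3 WT cells all had a UMI of Ptprc, Tyrobp, Fcer1g or Cd79a, with macrophage markers at 2732 and 12799 CPM in the 2 libraries. Of the Din-KO cells, 22 of 58 (37.9%) and 9 of 17 (52.9%) had such a UMI, against 31.5 and 36.5% of the other endothelium-like cells of these libraries. Endothelial markers stood at 7251 and 10400 CPM in the Din-KO cells, and at 9973 and 13052 CPM in Din-KO endothelium-like cells with no member UMI. Macrophage markers stood at 2258 and 891 CPM in the former and at 1286 and 459 CPM in the latter. Ptprc had a UMI in 12.1 and 29.4% of the former against 3.90 and 2.38% of the latter. Among the 5% of cells most like doublets were 24.1 and 29.4% against 9.09 and 7.14%. The part of mixed barcodes in these values was not tested.

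Without the cells that had an immune UMI, Cd74 was at 2.36, 4.25, 355 and 164 CPM and H2-Aa at 1.18, 1.42, 73.8 and 29.4 CPM in endothelium-like cells, and Cd74 had a UMI in 1.96, 4.35, 30.2 and 30.4% of cells. In this setting, chosen after the data were seen, each of the 6 members tested had 1 to 6 UMIs in a WT library and passed the filter only through the Din-KO libraries, so its fold is not given, and the call of 6 of 6 members (0.258% of genes were called) stands as a description. With the 5% of cells most like doublets removed, 6 of 7 members were called (0.306% of genes were), all but Ciita. That setting took out all 3 WT cells with 10 or more member UMIs, which held 86.6 and 95.6% of the member UMIs of their libraries. Few WT UMIs were thus left, and this call too stands as a description.

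**Figure D4:**
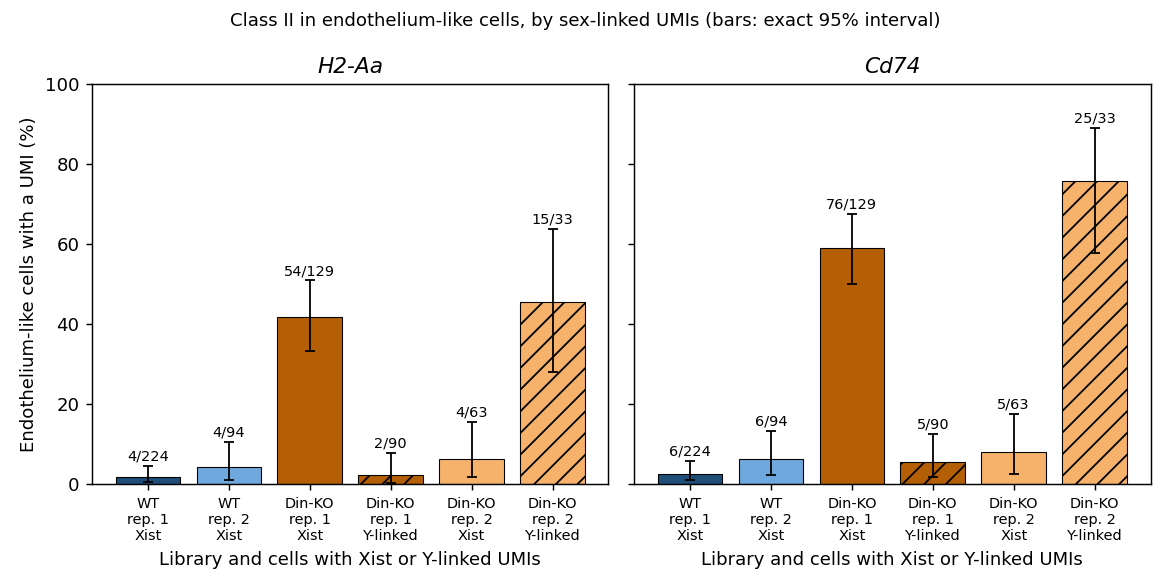
Percent of endothelium-like cells with a UMI of H2-Aa (left) and Cd74 (right) in each library, for cells with Xist UMIs and cells with Y-linked UMIs (hatched), with exact 95% binomial intervals as bars and cells with a UMI over all cells above. The share is high in the Xist cells of Din-KO replicate 1 (76 of 129 for Cd74) and the Y-linked cells of Din-KO replicate 2 (25 of 33), and at most 7.94% in the other groups.

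The endothelial cells with class II transcripts fell into opposite sexes in the 2 Din-KO libraries. Cells were called Xist cells with 3 or more UMIs of Xist and none of Uty, Kdm5d, Ddx3y or Eif2s3y, which lie on the Y chromosome, and Y-linked cells with a Y-linked UMI and at most 1 of Xist. In Din-KO replicate 1, Cd74 had a UMI in 76 of 129 Xist cells (58.9%, exact 95% interval 49.9 to 67.5%) and in 5 of 90 Y-linked cells (5.56%, 1.83 to 12.5%). In Din-KO replicate 2 it had a UMI in 5 of 63 Xist cells (7.94%, 2.63 to 17.6%) and in 25 of 33 Y-linked cells (75.8%, 57.7 to 88.9%). Xist cells of the WT libraries had one in 6 of 224 and 6 of 94 cells, and the WT libraries had no Y-linked endothelium-like cells. These intervals cover counting error only.

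H2-Aa, H2-Eb1, Ciita, H2-DMa and H2-DMb1 split the same way. They had a UMI in 12.4 to 41.9% of Xist cells of Din-KO replicate 1 and in 33.3 to 45.5% of Y-linked cells of Din-KO replicate 2, and in at most 9.52% of any other group. H2-Ab1 did not fall to the WT shares (5.80 and 9.57% of Xist cells) in the other sex. It had a UMI in 77 of 129 Xist (59.7%) and 15 of 90 Y-linked cells (16.7%) of Din-KO replicate 1, and in 22 of 63 Xist (34.9%) and 20 of 33 Y-linked cells (60.6%) of Din-KO replicate 2. The summed members stood at 144, 345, 1331 and 71.8 CPM in Xist cells, and at 21.4 and 1277 CPM in the Y-linked cells of the Din-KO libraries. For Cd74 the split was present in each of the 3 endothelial clusters. In the Plvap cluster Cd74 had a UMI in 51 of 88 Xist and 3 of 59 Y-linked cells of Din-KO replicate 1 and in 2 of 37 and 13 of 16 of Din-KO replicate 2. In the Cldn5 cluster the counts were 14 of 24 and 2 of 20, then 1 of 10 and 6 of 11, and in the Vwf cluster 11 of 17 and 0 of 11, then 2 of 16 and 6 of 6. With Xist cells alone no member was called between genotypes, and Cd74 differed by 1.85 through Din-KO replicate 1. Sex of the cells, the mice they came from and the library cannot be told apart here.

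Irf1, a transcription factor on the route from interferon gamma to Ciita, was at 48.2, 42.3, 106 and 60.7 CPM in Xist endothelium-like cells and at 61.5 and 176 CPM in the Y-linked cells of the Din-KO libraries. In each Din-KO library it was higher in the sex with the larger Cd74 share, which Ifngr1, Ifngr2, Jak1, Jak2 and Socs1 were not. Socs1, an inhibitor of the route, was at 29.4 CPM in Xist and 15.2 CPM in Y-linked cells of Din-KO replicate 1 and at 44.2 and 29.8 CPM in those of Din-KO replicate 2. Between genotypes, Irf1 differed by 0.92 ± 0.24 on the log2 scale (edgeR adjusted p = 0.837). Ifng itself had no UMI in endothelium-like, macrophage-like, monocyte-like, dendritic-like, B-like, B precursor-like or mesenchyme-like cells of any library. It was not read in the 112 T or NK-like cells, so these zeros do not cover the whole tissue.

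The split was not as clear in macrophage-like cells. Cd74 was at 181, 347, 756 and 456 CPM in their Xist cells and at 109 and 410 CPM in Y-linked cells of the Din-KO libraries. H2-Aa was at 47.1, 121, 239 and 202 CPM and at 21.7 and 83.0 CPM. In Din-KO replicate 1 the Xist cells were thus the higher ones, as in the endothelium, and in Din-KO replicate 2 the sexes were close for Cd74 and the Xist cells higher for H2-Aa.

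Compared with mesenchyme-like cells, endothelium-like cells were higher for 5 of 6 members tested (28% of genes were higher and 28.8% lower). Cd74 differed by 3.85 ± 0.46 (edgeR adjusted p = 0.00032), H2-Aa by 3.57 ± 0.68, H2-Eb1 by 3.54 ± 0.70, H2-Ab1 by 1.64 ± 0.42 and H2-DMa by 1.21 ± 0.32 on the log2 scale, and H2-DMb1 by 0.20 ± 0.49. All 7 macrophage genes measured beside them, C1qa among them at 1.79 ± 0.50, were higher too (median 1.93), and their part in the contrast was not tested. Without cells with an immune UMI only Cd74 and H2-Eb1 were called (53.9% of genes were). The contrast takes both genotypes together. In that setting Cd74 was at 2.36 and 4.25 CPM in WT endothelium-like and at 2.40 and 3.24 CPM in WT mesenchyme-like cells. In the Din-KO libraries it was at 355 and 164 CPM against 4.11 and 3.48 CPM. Of the route to Ciita, Irf1, Jak1, Ifngr1 and Ifngr2 were higher in endothelium-like cells, while Rfx5 was lower, by −0.66 ± 0.19.

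Mesenchyme-like cells showed the same direction between genotypes from few cells. None of 6 members was called by edgeR (0% of genes) and 3 were by DESeq2 (0.134% of genes), with 3 at an unadjusted p under 0.05. H2-Aa differed by 3.29 ± 0.63, Cd74 by 2.36 ± 0.47 and H2-Ab1 by 0.34 ± 0.18 on the log2 scale. Of the 6, 5 were higher in both Din-KO libraries than in both WT libraries, as were 12.1% of genes. In the Din-KO libraries 42.4 and 64.3% of the class's member UMIs lay in cells with 10 or more of them. Of the 24 such cells in the 4 libraries, 20 had an immune UMI. In epithelium-like cells Cd74 was at 1.07, 1.14, 41.3 and 22.2 CPM, and without cells with an immune UMI at 0.844, 0.686, 1.53 and 0.675 CPM.

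The ratio of class II to macrophage UMIs within a library was taken as a measure of free RNA, which keeps its genes in a fixed ratio in every class. The members' UMIs were 0.0302 times those of 7 macrophage genes (C1qa, C1qb, C1qc, Lyz2, Csf1r, Fcer1g and Tyrobp) in macrophage-like cells on average, 0.305 in monocyte-like, 0.640 in mesenchyme-like, 0.721 in endothelium-like, 11.6 in dendritic-like and 59.4 in B-like cells. In neutrophil-like cells it was 0.00132. Between libraries it ran from 0.149 to 1.31 in endothelium-like and from 0.416 to 1.17 in mesenchyme-like cells, so these classes overlapped. Dendritic-like (3.09 to 21.8) and B-like cells (22.3 to 121) lay above both ranges. In library order the ratio was 0.149, 1.31, 0.996 and 0.426 in endothelium-like and 0.463, 0.511, 0.416 and 1.17 in mesenchyme-like cells. As Cd74 over C1q it was 0.162, 3.20, 1.22 and 9.13 against 0.122, 0.169, 0.216 and 1.03. Most dendritic-like and B-like cells had class II transcripts of their own, so there the ratio cannot measure free RNA. In endothelium-like cells, those with 10 or more member UMIs held at least 78.3% of them. The part of free RNA was not tested.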

How the data were processed

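The authors deposited raw UMI counts per gene and barcode for 4 10x libraries (Cell Ranger 6.0.2 per the file headers, mm10/GRCm38). Of these counts, those of cells with 1000 or more genes, no more than 10% of UMIs from mitochondrial genes and no more than 3% from hemoglobin genes were used. Cells were integrated and clustered with Seurat 5.3.0 (2000 variable genes without class II genes, cell cycle regressed, 30 components, resolution 1). Immune clusters were clustered again. Clusters were named from marker lists by a rule set with the data in hand. Scrublet called 107 cells (0.946%), and all were kept. UMIs were summed per library and class and tested with edgeR 4.0.16 (quasi-likelihood, TMM, low counts filtered, Benjamini-Hochberg adjusted p under 0.05) in classes with at least 10 cells in every library, between classes with library as a block, and between genotypes with 2 libraries each. Standard errors are the log2 difference divided by the square root of F. The study's methods state no test over libraries.

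The members, lists and tests were chosen with earlier results of these data known. The text names all 7 members, counts for each list with values for genes past the threshold, and the 10 genes most like the members by Pearson correlation of log2(CPM + 1) over sums of at least 20 cells, at a mean of at least 5 CPM. On simulated data with 200 changed genes edgeR found 97% of 16-fold and 60% of 4-fold changes between genotypes in macrophage-like cells (10379 genes). Alternatives were DESeq2 1.42.0 (its size factors and its test), no filter, a replicate block, each library left out, the 5% most doublet-like cells removed, cells chosen one by one from markers, Xist cells only, class II genes kept in the clustering, and resolution 0.5. Added after the data were seen were leaving out the interferon-led cluster or cells with an immune UMI, and the Cx3cr1-high subset alone. Software ran in R 4.3.3 with limma 3.58.1. GEO's library names differ from its replicate numbers, and the replicate numbers of the titles were used.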

Additional observations from a re-analysis of the deposited data

Results flagged for a closer look

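H2-DMa and H2-DMb1, the chains of the H2-M chaperone, had the opposite direction between genotypes in dendritic-like cells and elsewhere. There each Din-KO value was under each WT value, by a log2 difference of group means of −0.35 for H2-DMa and −0.23 for H2-DMb1, while each Din-KO value exceeded each WT value in macrophage-like, B-like and endothelium-like cells. H2-DMa did so in mesenchyme-like cells too. Of all genes 9.61% did so in macrophage-like, 8.66% in B-like, 11.3% in endothelium-like and 12.1% in mesenchyme-like cells. H2-DMb1 had too few UMIs to test in B-like cells, so its order there is a description. The share of all genes with such an order in dendritic-like cells is not given. The difference between classes was not tested, and the fitted differences in dendritic-like cells, −0.31 ± 0.32 and −0.19 ± 0.31, were within their standard errors.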

How the results depend on the processing

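Over all alternatives that gave a value, 906 of 1027 member differences kept their direction and their side of the threshold, 31 lost the call, 52 gained it and 38 reversed. Of 436 values for members called in the main setting, 402 kept the call and 3 reversed. The cause of a moved call was not tested. With a library left out, its genotype kept 1 library, which was assumed to vary like the others.

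Between genotypes 0 members were called as reported. In macrophage-like cells the count was 2 without a filter, 5 with the replicate block and 0 to 4 with each library left out (4 without WT replicate 2). In B-like cells it was 3 with the block, in mesenchyme-like cells 3 by DESeq2. In endothelium-like cells it was 2 by DESeq2, 6 without a filter, 2 with the block, 6 with doublet-like cells removed, 6 without cells with an immune UMI, and 0 to 2 with each library left out (2 without WT replicate 2 or Din-KO replicate 2). The block changed no other genotype count. Same-numbered libraries deviated together (correlation 0.165 in dendritic-like to 0.784 in mesenchyme-like cells), but with 2 pairs the numbers do not establish a pairing.

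The 5 members called between endothelium-like and mesenchyme-like cells became 3 with doublet-like cells removed, 1 with cells chosen one by one, 3 in Xist cells and 2 without cells with an immune UMI. The 5 between macrophage subsets became 1 by DESeq2, 0 with cells chosen one by one, 1 in Xist cells and 1 to 6 with each library left out. The interaction gained 1 (Cd74) without the interferon-led cluster.

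Shares of cells with a Cd74 UMI moved when thinned to 2000 UMIs: dendritic-like WT 78.6%, B-like WT 80.5% and Din-KO 91.0%, macrophage-like 9.23 and 23.4%, endothelium-like 1.62 and 18.5%, mesenchyme-like 0.669 and 0.844%. With doublet-like cells removed the dendritic-like WT share was 76.5% and the endothelium-like Din-KO share 30.3%. As Cd74 over C1q the ratio was 330 in dendritic-like, 153 in B-like and 3.43 in endothelium-like cells.

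Directions that reversed were mostly of differences near 0. With each library left out, genotype differences in dendritic-like cells ran from −0.19 to 0.066 (H2-Aa), −0.48 to 0.43 (H2-Eb1), −0.26 to 0.17 (Cd74) and −0.15 to 0.65 (H2-Ab1, −0.027 with class II genes in the clustering). In B precursor-like cells they ran from −0.67 to 0.58 (H2-Aa), −0.45 to 0.51 (H2-Ab1), −0.061 to 0.92 (H2-Eb1) and −0.30 to 0.67 (Cd74, −0.89 in Xist cells). H2-Ab1 there was 0.047 with the block, 0.057 with doublet-like cells removed, 0.105 with class II genes in the clustering and 0.58 at resolution 0.5. Other ranges were −0.22 to 1.29 (Ciita, B-like), −0.38 to 2.29 (H2-DMb1, mesenchyme-like) and −0.17 to 2.13 (H2-Aa, endothelium-like), and H2-Ab1 in mesenchyme-like cells was −0.18 without cells with an immune UMI.

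B-like against macrophage-like cells, H2-DMb1 was −0.033 without a filter, −0.15 to 0.44 with each library left out and −1.16 with cells chosen one by one, where H2-DMa was −0.20. Endothelium-like against mesenchyme-like cells, H2-DMb1 was −0.27 to 0.88 with each library left out, −0.285 with doublet-like cells removed, −0.11 with cells chosen one by one and −0.235 without cells with an immune UMI. Chosen one by one, the subsets differed by −0.12 (H2-Aa) and −0.13 (H2-Eb1), and the interaction by −0.70 (H2-Aa), −0.39 (H2-Ab1), −0.89 (H2-Eb1) and −0.18 (Cd74). With each library left out it ran from −0.23 to 0.79 (H2-Aa), −0.10 to 1.17 (H2-Eb1) and −1.62 to 0.74 (H2-DMb1).

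Genotype tests in dendritic-like cells could not be run with doublet-like cells removed, in Xist cells or with cells chosen one by one, nor the last in B precursor-like cells, since a library fell under 10 cells. With 10 to 22 dendritic-like cells per library, small differences there were not detectable.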
